A study of Homo sapiens with 12 samples.

Results

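Short hairpin RNAs against CREM, in versions A and B, were set against a non-targeting hairpin (shNTC) in Raji cells. The comparison uses 3 of the 12 Illumina BeadChip arrays of the series: the shCREM A array, the shCREM B array and the single shNTC array that shares their naming set, called set 1 here. Members were the genes with a detection p-value under 0.05 on 2 or more of these 3 arrays, taken at the brightest probe on average, 10486 genes in all. Raji cells are B cells of a Burkitt lymphoma, kept as an established line. All cells, controls included, were transduced with a hairpin vector, selected with puromycin for 48 h and harvested on day 3 after transduction. Set 1 also holds 3 arrays of hairpins A, B and C against MS4A1, the gene of the B cell surface protein CD20, and these shMS4A1 arrays serve as a second background below. The other 6 arrays (set 2) are shMBD2 hairpins A and C and shNTC, with 2 arrays each. The labels do not say whether arrays came from separate cultures, so p-values measure only the spread between these arrays, which may be technical. Hairpins A and B are different hairpins against 1 gene rather than replicates of 1 treatment. The limma test below still puts them in 1 group, and the 3 shMS4A1 hairpins in another. Its spread, standard errors and p-values therefore include differences between hairpins.

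CREM, the cAMP responsive element modulator, is a leucine-zipper factor of the CREB family. Its isoforms bind the cAMP response element (CRE) and either activate or repress transcription, and protein kinase A signalling acts on the family through phosphorylation. Cyclin A2, encoded by CCNA2, is a long-studied CRE-containing gene that drives S phase and entry into mitosis. In B cells the family acts downstream of receptor and cAMP signals.

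The promoters of 3 genes on which the results below turn are shown first, 250 bases before to 50 after the annotated start, from RefSeq on GRCh38.p14, each read 5′ to 3′ on the gene's strand. Capitals mark matches on either strand to the CRE motif (TGACGTCA, or its TGACG part), to CCAAT, the motif bound by NF-Y, and to TTTGAA, the cell cycle homology region (CHR) bound by the DREAM and MuvB complexes. The CCNA2 window lies at chr4:121823834-121824133 on the minus strand, INSIG1 at chr7:155297628-155297927 on the plus strand and CDKN3 at chr14:54396757-54397056 on the plus strand.
CCNA2: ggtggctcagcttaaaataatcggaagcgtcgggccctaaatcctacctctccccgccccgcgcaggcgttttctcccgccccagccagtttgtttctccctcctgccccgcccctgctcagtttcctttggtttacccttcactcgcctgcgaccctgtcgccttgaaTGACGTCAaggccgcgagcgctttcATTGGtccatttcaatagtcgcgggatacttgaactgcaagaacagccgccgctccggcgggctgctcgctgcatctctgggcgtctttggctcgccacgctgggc
INSIG1: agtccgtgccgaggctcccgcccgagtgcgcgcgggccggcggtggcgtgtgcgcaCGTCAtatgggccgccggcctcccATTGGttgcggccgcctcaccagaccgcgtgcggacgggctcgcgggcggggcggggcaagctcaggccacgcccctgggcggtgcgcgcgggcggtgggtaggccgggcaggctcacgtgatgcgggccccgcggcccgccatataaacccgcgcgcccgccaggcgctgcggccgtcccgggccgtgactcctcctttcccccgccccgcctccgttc
CDKN3: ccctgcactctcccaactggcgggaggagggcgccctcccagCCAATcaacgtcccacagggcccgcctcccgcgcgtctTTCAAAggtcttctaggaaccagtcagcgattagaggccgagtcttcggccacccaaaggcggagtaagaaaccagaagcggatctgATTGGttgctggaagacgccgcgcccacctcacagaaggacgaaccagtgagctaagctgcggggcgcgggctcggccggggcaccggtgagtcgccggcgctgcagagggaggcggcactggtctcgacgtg
CCNA2 held the full CRE at position -81 and an inverted CCAAT box at -56. INSIG1 held the TGACG part of a CRE, inverted, at -194 and an inverted CCAAT box at -170. CDKN3 held an inverted CHR at -170 and CCAAT boxes at -208 and -83, but no CRE in this window. A match is a description of the letters and not a measured binding site.

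The arrays detected 20108 probes for shCREM A, 20289 for shCREM B and 20483 for shNTC, with median raw intensities of 104.35, 99.15 and 104.87. Of 7 B cell markers with a probe, 6 were detected on all 3 arrays, and PAX5 was on none. Of 7 T and NK cell markers, CD3E, CD8A and GNLY were undetected on all 3 arrays, while CD2, CD3D, CD3G and NKG7 were detected on at least 1. Of 6 myeloid markers, S100A9 was undetected and CD14, CSF1R, FCGR3A, LYZ and S100A8 were detected on at least 1. Of 7 epithelial and fibroblast markers 5 were undetected on all 3, and EPCAM and COL1A1 were not. Summed raw intensity of the 7 T and NK cell markers was 739.6 and 686.5 on the shCREM arrays, against 802.0 on the shNTC array. The 6 myeloid markers summed to 659.5 and 641.5, against 728.2, and the 7 epithelial and fibroblast markers to 834.6 and 712.4, against 869.5. Their part in the results was not tested. The 7 B cell markers summed to 50372.8 and 41881.6, against 49127.0. All these sums are raw, with background and undetected probes included, so the low ones cannot give an amount of other cells. In bulk RNA, fewer cells of a type and less RNA per cell cannot be told apart.

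The targeted gene was near the limit of detection. The single CREM probe had log2 intensities of 4.47 on the shCREM A array and 4.24 on the shCREM B array, neither detected (detection p 0.374 and 1), against 5.10 on the shNTC array (detection p 0.00134). Where both hairpin arrays are undetected the difference is a bound, and CREM was at least 1.53-fold lower in shCREM cells. The shMS4A1 arrays were also low for CREM, at 4.66, 4.48 and 4.62, and the shNTC arrays of set 2 had 4.25 and 4.47. The shNTC array of set 1 was the highest of all 12 for CREM, so the target checks the labels only weakly. CREM itself did not enter the tested genes, since it was detected on 1 of the 3 arrays. MS4A1, whose level checks the neighbouring arrays of the set, had 8.65 and 8.74 in shCREM cells and 6.16, 6.03 and 6.2 in shMS4A1 cells, against 8.06 in shNTC cells. The shNTC arrays of set 2 had 6.64 and 6.29, close to the shMS4A1 arrays, so MS4A1 checks the labels only within set 1.

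No gene passed limma's test of shCREM against shNTC at a Benjamini-Hochberg adjusted p under 0.05, which is 0% of the 10486 genes in each direction. The lowest adjusted p was 0.109. At an unadjusted p under 0.05, 617 genes were lower (5.88%) and 379 were higher (3.61%). Leaving out a hairpin gave calls, 29 without hairpin A and 138 without hairpin B, as did leaving out either shNTC array of set 2 (8), and the fit without a term for the set called 283. Because 1 shNTC array stands on the other side of this comparison, each hairpin is also described by its difference from that array, with no test and with 2-fold as the mark of size. Hairpin A lay 2-fold or more below shNTC at 323 genes (3.08%) and above it at 172 (1.64%). Hairpin B did so at 207 (1.97%) and 118 (1.13%). Both differences share the shNTC array.

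How large such counts are between arrays of 1 label bears on their reading. The shNTC arrays of set 2, replicate 1 against replicate 2, differed 2-fold or more at 427 of the same genes (4.07%), close to the 495 (4.72%) of hairpin A and above the 325 (3.1%) of hairpin B. The shMBD2 replicate pairs differed at 94 (0.896%) and 64 (0.61%), and pairs of shMS4A1 hairpins at 185 (1.76%, A and B), 145 (1.38%, A and C) and 147 (1.4%, B and C). Hairpin B against hairpin A differed at 557 (5.31%).

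The hairpins agreed at 64 genes, where both lay 2-fold or more from shNTC on the same side. Of these 42 were lower (0.401%) and 22 were higher (0.21%). The 64 were 12.9% of the genes past 2-fold under hairpin A and 19.7% of those under hairpin B. The count depends on the processing, with 15 genes (4 higher and 11 lower) after normexp with an offset of 50 and 10 (2 higher and 8 lower) in the authors' processed values. With detection required on all 3 arrays it was 56 (17 higher and 39 lower). A higher gene undetected on the shNTC array passed the filter only through the shCREM arrays, where it is high. Just inside the mark lay NEIL3 (-1.68 under A and -1.02 under B on the log2 scale) and TXNDC16 (-1.06 and -1.02). Just outside it lay CXCL10 (-1.08 and -0.99) and CPEB2 (0.98 and 1.11, with shNTC undetected). Both shCREM arrays were also beyond the 3 shMS4A1 arrays at 34 of the 42 lower genes (0.324% of all genes meet both conditions) and at 17 of the 22 higher ones (0.162%). They were below all 10 other arrays of the series at 26 of the 42, where 6.75% of all genes were. They were above all 10 at 12 of the 22, where 6.97% of all genes were. The 42 and the 22 were picked by the distance of these shCREM arrays from the shNTC array, which is 1 of the 10. These counts are therefore partly built in, and the shares over all genes are not a like background for them.

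**Figure D1:**
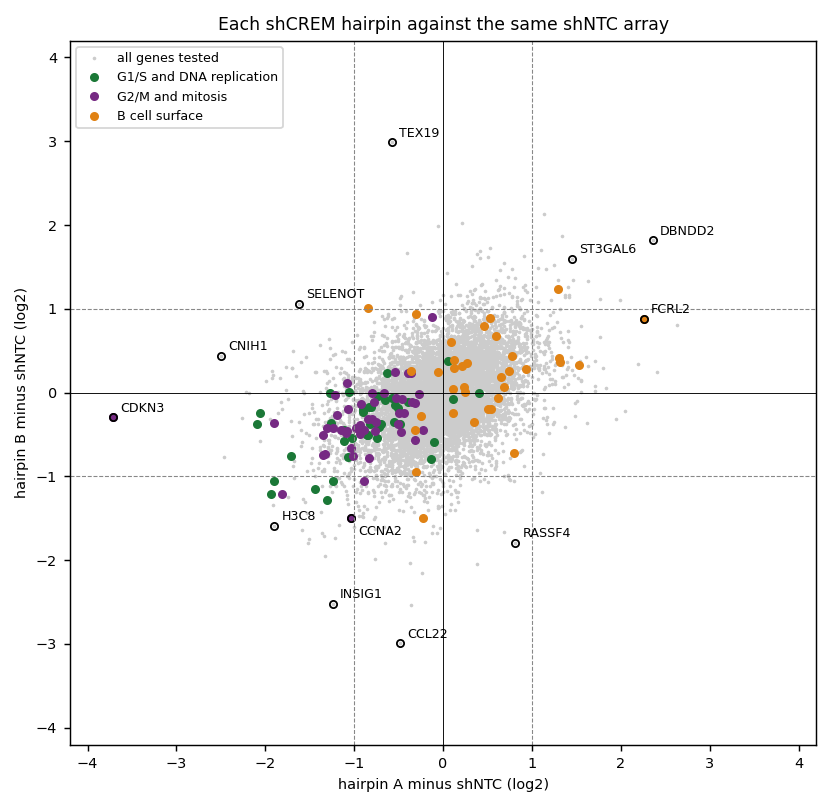
Log2 difference of hairpin A from shNTC (horizontal) and of hairpin B from the same shNTC array (vertical) for the 10486 genes, with the 2-fold marks dashed and 3 gene lists coloured. A tilt of the cloud is built in by the shared shNTC array. Replication and mitosis genes mostly lie left of 0 and farther from 0 under hairpin A, and CCNA2 and INSIG1 lie beyond 2-fold under both.

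CCNA2 had log2 intensities of 9.0 and 8.54 in shCREM cells, against 10.03 in shNTC cells. Both hairpin arrays were below all 10 other arrays of the series. The fitted log2 difference was -1.27 ± 0.21 (SE, n = 2 against 1, adjusted p = 0.109), or 2.41-fold lower. Against the shMS4A1 arrays, at 10.28, 10.45 and 10.38, CCNA2 fell by 1.60 on the log2 scale (adjusted p = 0.000121, n = 2 against 3). Its raw intensities were 700.2 and 463.4, against 1462.6 in shNTC cells.

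INSIG1 encodes the membrane protein that holds the SREBP and SCAP complex in the endoplasmic reticulum and is itself an SREBP target. It had 10.61 under hairpin A and 9.32 under hairpin B, against 11.85 in shNTC cells. The fitted difference was -1.88 ± 0.34 (SE, adjusted p = 0.115), with -1.24 under A and -2.52 under B. A second INSIG1 probe had 6.17 and 6.43, against 8.50, so both probes were lower under both hairpins. The shMS4A1 arrays lay between, at 11.26, 11.13 and 10.96, and INSIG1 fell by 1.15 against them (adjusted p = 0.0135).

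CDKN3 is where the hairpins part. This phosphatase of cyclin-dependent kinases had 6.37 under hairpin A and 9.79 under hairpin B, against 10.08 in shNTC cells. Hairpin A lay -3.71 from shNTC and hairpin B only -0.29, and hairpin B was 3.42 above hairpin A. The shMS4A1 arrays were at 10.34, 10.40 and 10.65. The fitted mean of both hairpins, -2.0 ± 0.80 (SE, adjusted p = 0.462), therefore describes neither hairpin.

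**Figure D2:**
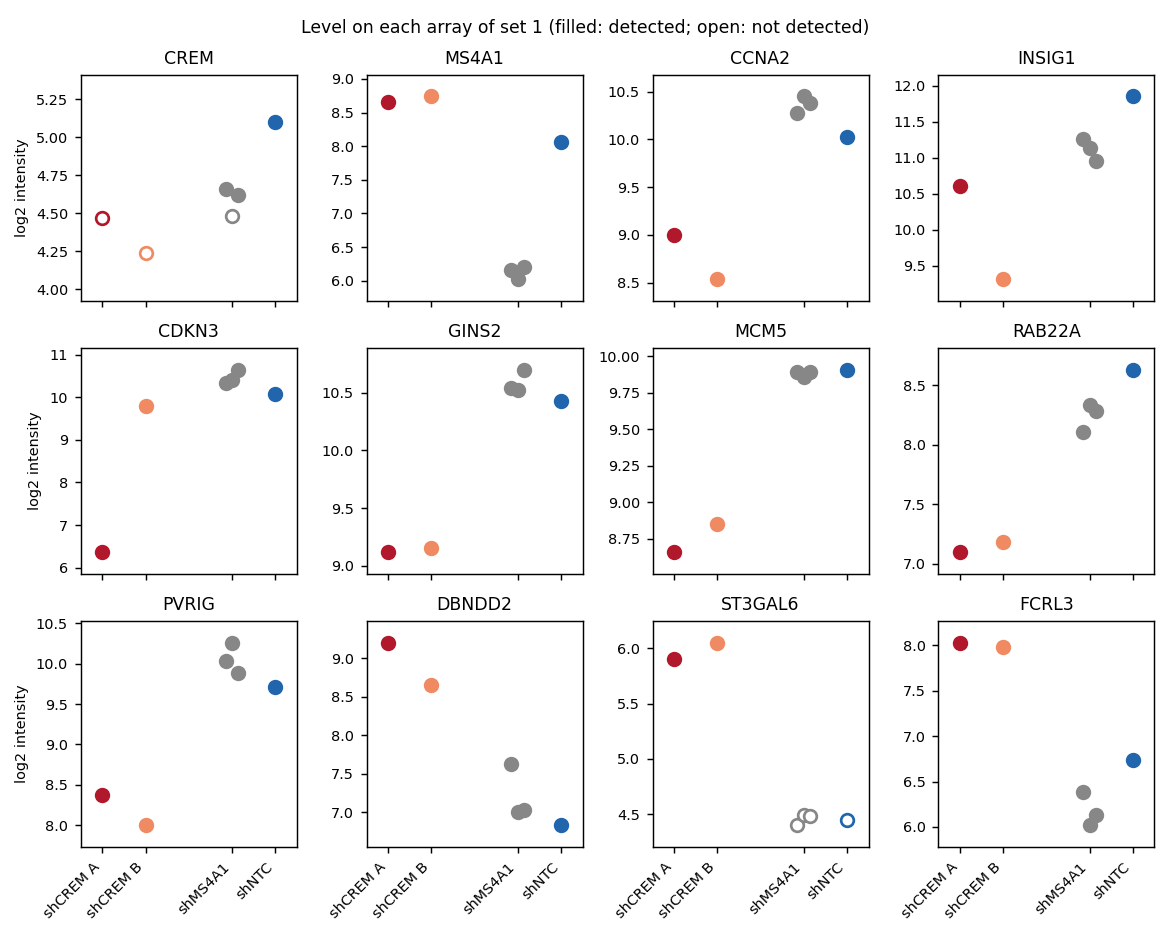
Log2 intensity of 12 genes on each array of set 1, with shCREM A and B at the left, the 3 shMS4A1 arrays in grey and shNTC at the right, and open points where the probe was not detected. CCNA2, GINS2, MCM5 and RAB22A are low on both shCREM arrays, DBNDD2, ST3GAL6 and FCRL3 are high on both, and CDKN3 is low under hairpin A alone. Each panel has its own vertical scale, which does not start at 0.

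Several genes lower under both hairpins were also lower than on most or all other arrays. GINS2, a subunit of the replicative helicase, had 9.12 and 9.15 in shCREM cells, against 10.43 in shNTC cells (-1.29 ± 0.29, adjusted p = 0.166). The shMS4A1 arrays, at 10.54, 10.52 and 10.70, were all higher, but 1 of the shNTC arrays of set 2 had 9.02. RAB22A, a small GTPase of endosomes, had 7.10 and 7.18, against 8.63 (-1.49 ± 0.24, adjusted p = 0.109). Here all 10 other arrays were higher than both hairpins, the lowest at 7.76. PVRIG, an inhibitory receptor of the nectin family network, had 8.37 and 8.0, against 9.71 (-1.52 ± 0.27, adjusted p = 0.115).

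FGFR4, a fibroblast growth factor receptor, had 6.32 and 5.70, against 7.65, and a second FGFR4 probe was also lower under both (-0.71 and -1.12). SFXN2, a mitochondrial sideroflexin, had 4.86 and 5.12, against 6.42. PPP2R3B, a regulatory subunit of protein phosphatase 2A, had 5.39 and 5.96, against 7.30, but its second probe differed by -0.40 and 0.04. All of GINS2, RAB22A, PVRIG, FGFR4, SFXN2 and PPP2R3B fell against the shMS4A1 arrays, with adjusted p between 0.000164 and 0.00506.

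Histone genes were found on both sides. H3C8 had 4.73 and 5.04, against 6.63 in shNTC cells. H3C12 had 5.02 and 4.96, against 6.61, and H2BC7 had 4.85, and 4.58 without detection, against 6.37. These 3 core histone genes fell against the shMS4A1 arrays by 1.99, 1.57 and 2.12 (adjusted p = 0.000782, 0.00326 and 0.000463). For H3C12, however, the shNTC arrays of set 2 had 4.78, below both hairpins, and 5.61. H4C8 had 6.67 and 6.98, against 5.51, and so was higher under both hairpins. H2BC9 was lower (-1.12 and -1.11 under A and B), while H2BC12 was higher (1.99 and 1.11), both picked after their values were seen. Histone genes are near copies of each other, so how probes split their signal is uncertain.

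For some of the 42, the shMS4A1 arrays were as low as the hairpin arrays. NOD1, a sensor of bacterial peptidoglycan, had 5.29 and 5.05 in shCREM cells, against 6.79 in shNTC cells, but the shMS4A1 arrays had 5.22, 5.17 and 5.28. DISP1, a transporter that releases hedgehog ligands, had 4.87, and 4.55 without detection, against 6.23, with 4.71, 4.55 and 4.43, all without detection, in shMS4A1 cells. The non-coding RNA LINC03040 had 5.4 and 5.34, against 6.77, with 4.95, 5.84 and 5.78 in shMS4A1 cells, and its second probe was higher under both hairpins (0.41 and 0.29). In 5 of the 42 lower genes the shMS4A1 mean was also 2-fold or more below shNTC. RSF1, a chromatin remodelling subunit, was the 1 such gene among the 22 higher: 6.26 and 6.06, against 4.88, with 5.97, 6.26 and 6.31 in shMS4A1 cells.

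Higher under both hairpins was led by DBNDD2, a dysbindin domain protein, with 9.20 and 8.65, against 6.83 in shNTC cells (2.09 ± 0.40, adjusted p = 0.115). It rose by 1.71 against shMS4A1 (adjusted p = 0.0035). ST3GAL6, a sialyltransferase, had 5.90 and 6.05, against 4.45 without detection, and was at least 2.76-fold higher. It was undetected on the 3 shMS4A1 arrays as well (4.40, 4.49 and 4.48), so it entered the tested genes through the shCREM arrays alone. A second sialyltransferase gene, ST3GAL1, was at least 3.04-fold higher than on the shNTC array of set 1, with 5.92 and 6.46 against 4.59 without detection. The shNTC arrays of set 2 had 6.38 and 6.57, so ST3GAL1 was not high against them. The second ST3GAL1 probe differed by -0.33 and 0.22, and the gene did not pass against shMS4A1 (adjusted p = 0.0865).

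FCRL3, an Fc receptor-like protein of B cells, had 8.03 and 7.98, against 6.74, and rose by 1.82 against shMS4A1 (adjusted p = 0.000319). Its second probe was higher than on the shNTC array by 0.64 and 0.37. FNDC3A, a fibronectin domain protein, had 7.35 and 7.23, against 5.88, and PATL2, an RNA-binding protein, had 5.98 and 6.02, against 4.69. ABLIM1, an actin-binding LIM protein, had 8.43 and 8.69, against 7.17, and its other probes were also higher, by 1.15 and 0.92 and by 1.51 and 1.74. The shNTC arrays of set 2 had 8.29 and 8.47 for ABLIM1, near the hairpins. The other named genes were CHD2, a chromatin remodeller (6.23 and 5.97, against 4.81), ENO1-AS1 (6.59 and 6.29, against 4.96) and MIR1323 (5.94 and 5.81, against 4.54 without detection, at least 2.52-fold higher). Neither these 3 genes nor ABLIM1 and H4C8 passed against shMS4A1 (adjusted p = 0.0507 for CHD2, 0.273 for ENO1-AS1, 0.0928 for MIR1323, 0.0706 for ABLIM1 and 0.0901 for H4C8). For ENO1-AS1 an shMS4A1 array, at 6.36, lay between the hairpins. For CHD2 the shNTC arrays of set 2 had 6.96, above both hairpins, and 5.48. Probe sequences were not available, so whether the ENO1-AS1 and MIR1323 probes also read neighbouring transcripts was not checked. Other probes of the 2-fold genes that passed the filter were few. The lower genes had 7, of which 4 were lower under both hairpins and 2 were 2-fold lower. The higher genes had 8, of which 6 were higher under both hairpins and 2 were 2-fold higher.

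DNA replication genes had negative medians under both hairpins. Of 44 listed G1/S genes 41 were tested. Their median log2 difference was -0.83 under hairpin A and -0.37 under hairpin B, and the fitted median was -0.57, where the median of all genes tested was -0.02. None passed the adjusted test, 18 were lower and 0 higher at an unadjusted p under 0.05 (all genes 5.88% and 3.61%), and 35 lay below 0 under both hairpins, where 34.2% of all genes did. MCM5, a helicase subunit, had 8.66 and 8.85, against 9.91 in shNTC cells. LIG1, the replicative DNA ligase, had 6.62 and 7.46, against 8.52, and POLD1, the catalytic subunit of DNA polymerase delta, had 6.95 and 7.24, against 8.40. RRM2, a ribonucleotide reductase subunit, had 6.22 and 6.95, against 8.16, and was picked after its values were seen. For RRM2 the shNTC arrays of set 2 had 6.76, below hairpin B, and 7.65.

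Control arrays also differed in these genes. The shNTC arrays of set 2 differed from each other by a G1/S median of -0.57, replicate 1 minus replicate 2, which equals the fitted shCREM median and is smaller than the -0.83 of hairpin A alone. The shMBD2 pairs differed by -0.14 and 0.03, and pairs of shMS4A1 hairpins by -0.01, -0.09 and -0.03. For MCM5 these controls had 8.74 and 9.26. Both hairpins lay below all 10 other arrays at 7 of the 41 genes (17.1%, all genes 6.75%). Against the 3 shMS4A1 arrays of the same set, 22 of the 41 fell and 0 rose (all genes 4.64% and 4.33%).

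For mitotic genes the medians were alike, but the shNTC pair of set 2 differed less. All 47 listed G2/M genes were tested, with a median of -0.89 under hairpin A and -0.36 under hairpin B, and a fitted median of -0.62. At an unadjusted p under 0.05, 22 were lower and 0 higher (all genes 5.88% and 3.61%). All 47 lay below 0 under hairpin A (all genes 50.2%) and 42 under both (34.2%). The shNTC pair of set 2 differed by a median of 0.07 over the same genes, and the other pairs by -0.23 to 0.16. Here both hairpins lay below all 10 other arrays at 32 of the 47 (68.1%, all genes 6.75%). Against shMS4A1, 28 fell and 0 rose (all genes 4.64% and 4.33%).

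ESPL1, separase, had 5.59 and 6.18 in shCREM cells, against 7.39 in shNTC cells, with 7.04, 7.33 and 7.16 in shMS4A1 cells. CDCA8, a chromosomal passenger subunit, had 8.22 and 8.83, against 9.55, and KIF2C, a microtubule-depolymerising kinesin, had 8.30 and 8.68, against 9.34. With CCNA2 these were below all shMS4A1 arrays under each hairpin. MYBL2, which drives late cell cycle genes, went another way under hairpin B, with -0.12 under A and 0.90 under B, and is given as the list's highest fitted value (0.39).

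Among lists with 9 or more genes tested, the hairpins were farthest apart for kinetochore genes. The 26 tested had medians of -1.06 under hairpin A and -0.17 under hairpin B. Of these 14 lay 2-fold or more below shNTC under A and 0 under B (all genes 3.08% and 1.97%), and 8 were 2-fold higher under B than under A (all genes 2.78%). CENPM, a constitutive centromere subunit, had 9.91 and 10.12, against 10.80. CENPF had 6.77 and 7.63, against 8.08. Homologous recombination and Fanconi genes had medians of -0.78 under A and -0.11 under B over 20 genes, and condensin and cohesin genes -0.70 and -0.13 over 14. The shNTC pair of set 2 differed by -0.59 over the repair genes, -0.22 over the kinetochore genes and -0.03 over the condensin and cohesin genes. PARPBP, a DNA repair factor, was 2-fold lower under both (6.79 and 7.09, against 8.36), as was the condensin subunit NCAPG2 (6.44 and 6.59, against 7.68).

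**Figure D3:**
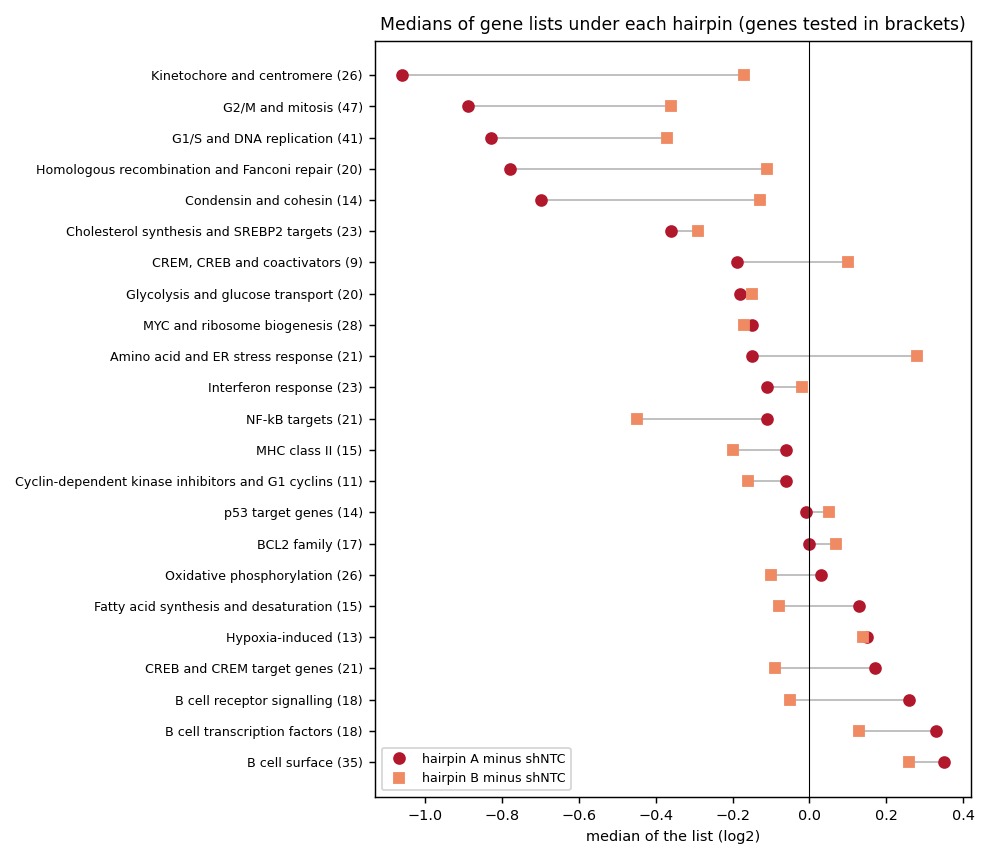
Median log2 difference from shNTC of each gene list with 9 or more genes tested, hairpin A as circles and hairpin B as squares, with the number of genes tested in brackets. The replication, mitosis, kinetochore, condensin and repair lists have negative medians under both hairpins and lie farther from 0 under A, from -1.06 to -0.70 against -0.37 to -0.11 under B. The list of cyclin-dependent kinase inhibitors and G1 cyclins lies near 0, at -0.06 under A and -0.16 under B. Both hairpins share the shNTC array.

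The promoters of the G2/M genes carry the motifs known for this class. Of 39 with a RefSeq promoter, 25 held TTTGAA (64.1%) and 32 held CCAAT (82.1%), where 15.4% and 35.7% of all 27305 promoters did and 10.4% and 38.6% of those of the tested genes. The full CRE was in 2 (5.13%), where 1.98% of all promoters and 3.58% of tested genes held it. Among the genes 2-fold lower under both hairpins it was in 1 of 33 (3.03%), that of CCNA2, and among those higher in 3 of 18 (16.7%), H4C8 among them at -131. Of the CREB and CREM target list 2 of 18 held it (11.1%). Motifs were searched on both strands, and a full CRE contains TGACG on each. Promoters were matched by gene for 8417 of the 10486 genes.

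Against shNTC, genes known as CREB and CREM targets had medians near that of all genes. The 21 tested had medians of 0.17 under hairpin A and -0.09 under hairpin B, with 2 lower and 0 higher at an unadjusted p under 0.05, near the shares of all genes (5.88% and 3.61%). Against shMS4A1, 3 of the 21 rose and 0 fell (all genes 4.33% and 4.64%), but that comparison also holds any effect of MS4A1 hairpins. EGR1, an immediate early factor, had 5.04 and 5.56, against 6.23 in shNTC cells, with 5.64, 5.46 and 5.52 in shMS4A1 cells. JUNB had 6.28 and 5.77, against 6.75. PER1, a clock gene, had 5.13 and 5.23, against 4.65 without detection, at least 1.44-fold higher. PDE4D, a cAMP phosphodiesterase, had 5.36 and 4.86, against 4.5 without detection, at least 1.52-fold higher. The shNTC arrays of set 2 had 5.33 and 5.11 for PER1 and 5.21 and 5.43 for PDE4D, so neither gene was high against them. PER1 and PDE4D both entered the tested genes through the shCREM arrays alone. Among 9 tested members of the CREB family and its coactivators, CRTC3 had the lowest fitted difference, -1.06 (4.91 and 4.73, against 5.88), but it was 4.86, 5.14 and 4.81 in shMS4A1 cells. CREBBP had 8.38 and 8.39, against 7.99.

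The other genes of cholesterol synthesis differed less than INSIG1. The 23 tested had medians of -0.36 under A and -0.29 under B, with 6 lower and 0 higher at an unadjusted p under 0.05 (all genes 5.88% and 3.61%) and 12 below 0 under both (34.2%). HMGCS1, which makes HMG-CoA, had 10.74 and 10.33, against 11.28, LSS, lanosterol synthase, had 9.0 and 8.98, against 9.64, and SREBF1 had 7.56 and 7.56, against 8.29. LSS stood at 8.92, 8.95 and 8.98 in shMS4A1 cells, level with the hairpins. Of the 23, 1 gene, INSIG1, fell against shMS4A1 and 0 rose (all genes 4.64% and 4.33%).

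Surface genes of B cells had positive medians under both hairpins. The 35 tested had medians of 0.35 under A and 0.26 under B, 21 lay above 0 in both (all genes 31.6%), and 6 were higher and 1 lower at an unadjusted p under 0.05 (all genes 3.61% and 5.88%). The shNTC pair of set 2 differed by a median of 0.24 over the same genes, close to that of hairpin B. The other pairs differed by -0.15 to 0.07. Both hairpins were above all 10 other arrays at 7 (20%, all genes 6.97%). FCRL2 had 7.89 and 6.51, against 5.63 in shNTC cells. CD37, a tetraspanin, had 10.05 and 10.41, against 9.52, and CD48 had 12.45 and 12.11, against 11.67. For CD37 the shNTC array of set 1 was the lowest of all 12. The shMS4A1 arrays had 9.81, 10.41 and 10.29 for CD37, and the shNTC arrays of set 2 had 11.35 and 11.34. For CD48 the shNTC arrays of set 2 had 12.58, above both hairpins, and 12.08. Against shMS4A1, 13 rose and 2 fell (all genes 4.33% and 4.64%), but that comparison includes the effect of MS4A1 hairpins on the other side. CR2, the complement receptor CD21, was low under B alone (-0.23 under A and -1.50 under B).

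The largest differences between the hairpins involve no control array. Hairpin B was 2-fold or more above hairpin A at 291 genes (2.78%) and below it at 266 (2.54%). The sum of 557 was 226 after normexp and 143 in the authors' processed values. TEX19, a testis-expressed gene, had 6.07 under A and 9.64 under B, against 6.65 in shNTC cells, so hairpin B stood apart. CNIH1, a cargo receptor of the secretory pathway, had 7.79 under A and 10.73 under B, against 10.29, and its other 2 probes gave differences, B minus A, of 2.94 and 2.72. AP3B1, an adaptor subunit of lysosomal sorting, had 7.41 and 9.59, against 9.33. VAMP7, a SNARE of late endosomes, had 7.17 and 9.35, against 8.86, and AK3, a mitochondrial adenylate kinase, had 6.14 and 8.37, against 8.36. For CNIH1, AP3B1, VAMP7 and AK3 hairpin A was below every other array of set 1. RMRP, the RNA of a mitochondrial RNA-processing enzyme, had 5.46 and 7.64, against 7.64, though 1 shMS4A1 array had 5.94.

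In the other direction, CCL22, a chemokine of activated B cells, had 7.82 under A and 5.31 under B, against 8.30 in shNTC cells. RASSF4, a Ras association protein, had 8.10 and 5.50, against 7.29, and MVP, the major vault protein, had 7.99 and 5.64, against 7.29. The shMS4A1 arrays were close to hairpin B for all of CCL22 (5.52, 4.80 and 5.32), RASSF4 (5.25, 4.75 and 5.25) and MVP (5.69, 5.35 and 5.33). DENND1A, an exchange factor for Rab35, had 8.16 and 5.74, against 7.79, and TNFRSF21, a death receptor, had 6.85, and 4.69 without detection, against 7.21. In these 2 genes hairpin B was below every other array of set 1 at the probe used. Other probes gave smaller differences, B minus A: -1.30 and 0.15 for DENND1A, -0.90 for RASSF4 and -1.20 for MVP. The DENND1A probe at 0.15 did not show the difference. PIERCE1 had 7.23 and 4.96, against 5.18, with a second probe at 6.95 and 4.60, against 4.89, and SCARNA9L had 6.68, and 4.42 without detection, against 4.74, so there hairpin A stood apart. NF-kB target genes, of which CCL22 is 1, had medians of -0.11 under A and -0.45 under B over 21 genes. The shNTC pair of set 2 differed by -0.24 over them, and pairs of shMS4A1 hairpins by 0.31, 0.23 and -0.22.

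**Figure D4:**
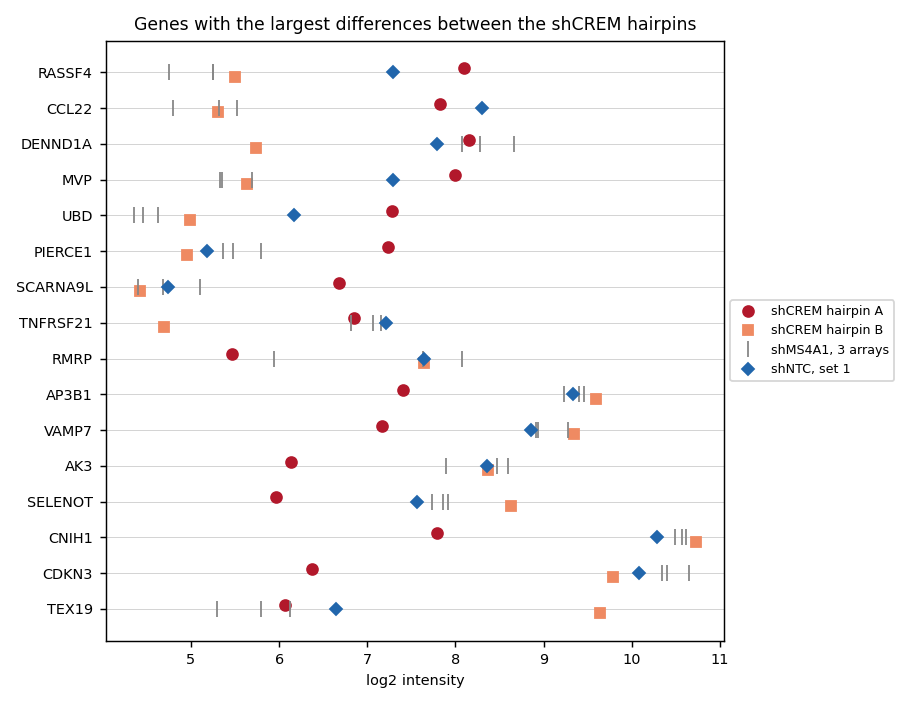
Log2 intensity of the 16 genes with the largest differences between hairpins A (circles) and B (squares), with the 3 shMS4A1 arrays as grey ticks and shNTC as a diamond. In the lower rows hairpin A lies left of all others, except for TEX19, where hairpin B lies far to the right. In the upper rows hairpin B lies left of hairpin A, often with the shMS4A1 arrays.

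Set against the 3 shMS4A1 arrays instead of the single shNTC array, limma called 487 genes lower (4.64%) and 454 higher (4.33%) in shCREM cells. The sum of 941 ranged from 397 without the set term to 1190 without 1 shNTC array of set 2. Of the 42 genes 2-fold lower than shNTC under both hairpins 31 were called lower, and of the 22 higher 9 were called higher. The same shCREM arrays enter both comparisons, so these counts are partly built in. The second comparison also holds any effect of MS4A1 hairpins: CCR7, IFI44L and TRAF1 rose by 2.86, 3.60 and 2.11, but differed from shNTC by 0.42, 0.31 and -0.09. IFI44L was detected on 1 of the 3 shMS4A1 arrays. These 3 were picked after their values were seen.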

How the data were processed

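The authors deposited raw intensities on a linear scale with a detection p-value per probe and array, per the file headers, and processed intensities whose normalization is not given in these sources. Both tables were joined by matching each probe's values over the 12 arrays (48105 probes, largest distance 0.0566 log2 to the match and smallest 0.076 to any other probe). Gene symbols came from the platform annotation: 30113 probes had 1 symbol, 8 several and 17984 none.

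Raw intensities were background-corrected and quantile-normalized with neqc (offset 16) in limma 3.58.1 under R 4.3.3. limma with an intensity trend was fitted to all 12 arrays with the set as a term, with two-sided p-values adjusted by Benjamini-Hochberg over 10486 genes. Differences of single arrays carry no test, and the number of arrays limits precision. The script was tested on simulated data. Another 899 genes, detected on the shNTC array alone, were left out.

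Named genes were the markers given with the comparison and MS4A1, the 12 genes each way with the largest smaller difference of the 2 hairpins, the 8 each way with the largest difference between hairpins, and up to 4 per list by smallest p. Members, lists and rules were chosen with earlier results of these data known. Alternatives were background correction, normalization, the authors' values, the detection filter, the set term, the trend and leaving out arrays.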

Additional observations from a re-analysis of the deposited data

Results flagged for a closer look

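UBD and SELENOT were singled out because hairpins A and B lay on opposite sides of shNTC, each by 2-fold or more. UBD, a ubiquitin-like protein, had 7.28 under hairpin A and 4.99 under hairpin B, against 6.17 in shNTC cells, a difference of -2.30 (log2, B minus A). SELENOT, a selenoprotein of the endoplasmic reticulum, had 5.96 and 8.63, against 7.57, a difference of 2.67. Its second probe gave -0.70, the other direction. Neither difference was tested, since each hairpin has 1 array. UBD had 4.63, 4.35 and 4.46 in shMS4A1 cells, all without detection, and SELENOT had 7.73, 7.86 and 7.92.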

How the results depend on the processing

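The count of 0 genes called against shNTC became 25 with no detection filter, 11 with genes detected on 1 or more of the 3 arrays and 283 without the set term, which lets the shNTC arrays of set 2 in. Leaving out 1 array gave 0 to 138: 29 without hairpin A, 138 without hairpin B, 8 without either shNTC array of set 2 and 0 without an shMS4A1 array. Without 1 hairpin, the lone array is assumed to vary like the other groups. The count stayed 0 with normexp, neqc on set 1, the authors' values, detection on all 3 arrays, no trend and set 1 alone, where the lowest adjusted p ran from 0.0646 to 0.386. The 64 genes shared by the hairpins (22 higher, 42 lower) became 15 with normexp (4 and 11), 10 with the authors' values (2 and 8), and 100 both with no filter and with detection on 1 or more arrays (22 and 78). The 557 genes between hairpins became 226 with normexp and 143 with the authors' values. The 941 genes called against shMS4A1 became 543 with neqc on set 1, 561 with no filter, 397 without the set term and 506 with set 1 alone, and leaving out 1 array gave 471 to 1190: 538 without hairpin A, and 602, 472 and 471 without shMS4A1 hairpins A, B and C. The causes were not tested, except that fewer genes or arrays enter some of these fits. Among named genes and list medians, 749 alternative values were counted as the same, 65 moved, 43 passed the threshold where the reported value did not, and none reversed. Reversal was counted only for values with a test. List medians and differences between hairpins could only be the same or moved. Differences between hairpins cannot change with the trend, the set term or left-out control arrays, so part of the 749 is built in. No paired analysis was possible because the shCREM labels carry hairpin letters and set 1 has 1 shNTC array, so the groups share no replicate number. CREM and other dim probes near the lowest detected level of 4.47 to 4.51 on these arrays have differences that are limited by background.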

Other observations

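When genes detected on 1 or more of the 3 arrays were let in, 7 of the 11 genes called were detected, at the probe used there, on the shNTC array alone. PHOX2A, a homeobox factor of autonomic neurons, had 4.32 and 4.36 in shCREM cells, against 6.46 in shNTC cells, and lay between 4.2 and 4.80 on the other 9 arrays. DMRTC2 had 4.27 and 4.24, against 6.21, with 4.26 to 4.66 on the other 9. CA2, a carbonic anhydrase, had 4.30 and 4.21, against 6.0, with 4.24 to 4.98. For ZNF610, TTC39B, CD300LF and SPMIP1 the shNTC array was likewise the highest of the 12. The remaining 4 were GPD1L, CCNA2, RAB22A and ST3GAL6.

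GPD1L, a glycerol-3-phosphate dehydrogenase, had 8.85 and 8.90 in shCREM cells, against 9.99 in shNTC cells, with 9.76 to 10.23 on the other 9 arrays. The amino acid and endoplasmic reticulum stress genes had medians of -0.15 under hairpin A and 0.28 under hairpin B over 21 genes, while the shNTC pair of set 2 differed by 0.75 over them. ATF4 had 12.95 and 13.15, against 12.66. Of 20 glycolysis genes both hairpins were below all 10 other arrays at 7 (35%, all genes 6.75%), with medians of -0.18 and -0.15. The shNTC pair of set 2 differed by 0.29 over the glycolysis genes. SDHA, a subunit of succinate dehydrogenase, had 8.94 and 8.84, against 9.76, and 10.17, 10.30 and 10.14 in shMS4A1 cells. MYC had 11.88 on both, against 12.36. IRF8, a B cell transcription factor, had 11.49 and 11.45, against 10.63, and 10.33, 10.81 and 11.02 in shMS4A1 cells. Of 4994 probes without a gene name that passed the filter, 6 were 2-fold lower (0.12%) and 15 higher (0.3%) under both hairpins.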
